A study of Homo sapiens with 6 samples.

Results

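The MYC, MAX and MXD network genes were followed in H1299 cells with and without a guide RNA against SETDB1. The set holds 10 genes by symbol: MYC, MYCN, MYCL, MAX, MXD1, MXD3, MXD4, MNT, MGA and MLX. Their rows were found by Ensembl identifier in GENCODE 29, which gave 9 of the 18677 rows of the deposited table. MYCN was not among these rows and was not analysed here.

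Proteins of this network share a basic helix-loop-helix leucine zipper domain and bind DNA in pairs. MYC, MYCN and MYCL pair with MAX at E-box sites and raise transcription of genes for ribosome production, metabolism and cell division. MXD proteins and MNT also pair with MAX but bring SIN3 and histone deacetylases and repress such genes, while MLX pairs with MondoA (MLXIP) or ChREBP (MLXIPL) in the response to glucose. MGA, the largest member, pairs with MAX inside the Polycomb complex PRC1.6, which represses germline genes.

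The H1299 line comes from a human non-small cell lung cancer and is long established. The 6 RNA-seq libraries were 3 of SETDB1-knockout cells (guide "hSETDB1 sg1") and 3 of control-knockout cells (guide "Control sg2"), and both groups grew in RPMI-1640 medium with serum, antibiotics and puromycin. Each group rests on 1 guide. The labels do not say whether replicates were separate cultures, or whether each line was a clone or a pool, so p-values measure only the spread between these samples.

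Libraries held from 29532057 to 35941288 counts. Levels are in CPM, the usual depth-scaled count, with library totals adjusted by the TMM method, and means carry their SD over n = 3 libraries. Positive log2 fold changes mean a higher level in the knockout, each given with its standard error (SE). SETDB1 itself stood at 36.1 to 40.6 CPM in the knockout and at 41.6 to 45.0 CPM in the control, a log2 fold change of -0.17 ± 0.06 (SE; edgeR adjusted p = 0.0151). This call was lost without SETDB1-knockout replicate 2 (-0.13) and with library size alone (-0.13), and an edited gene need not lose its mRNA. The keratin genes KRT8 and KRT18 and the vimentin gene VIM were at 157 CPM or more in every library, EPCAM was at 0.311 CPM or less, and KRT19 was not analysed here. KRT8 stood at 157 to 158 CPM in the knockout and 362 to 378 CPM in the control, and KRT18 at 325 to 338 and 581 to 635 CPM, falls of 1.22 and 0.85 on the log2 scale (edgeR adjusted p = 1.02e-13 and 6.53e-11). The part of this difference in the members' values was not tested. Of 12 markers of fibroblasts, leukocytes and endothelium, 5 were in the table, with summed levels of 1.96 to 2.17 CPM in the knockout and 1.78 to 2.07 CPM in the control.

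The core E-box that network dimers bind, CACGTG (the same on both strands), was searched in RefSeq promoter windows (GRCh38.p14, 250 bases before to 50 after a gene's start). A window was at hand for 9 of the 10 members, as 12 windows, since some genes have several starts. The member without a window was MYC, so its promoter was not searched, while MYCN had one. It occurred in 3 of these 12 windows (25%), those of MXD4, MNT and MLX, and in 7.26% of all 35116 windows. The whole window is shown for MXD1, the member with the largest fall, and for MLX, the only member called higher. For MNT and MXD4, and for 3 genes from the lists described further on, 30 bases around the E-box are shown. Letters run 5′ to 3′ on the gene's strand, and capitals mark the E-box.
MXD1 (chr2:69914859-69915158, plus strand): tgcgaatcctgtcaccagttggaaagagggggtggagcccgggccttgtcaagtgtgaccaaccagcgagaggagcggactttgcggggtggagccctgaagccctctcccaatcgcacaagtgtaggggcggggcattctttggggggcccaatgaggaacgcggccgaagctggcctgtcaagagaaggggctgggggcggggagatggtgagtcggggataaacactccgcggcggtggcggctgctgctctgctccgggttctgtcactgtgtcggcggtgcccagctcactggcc
MLX (chr17:42566850-42567149, plus strand): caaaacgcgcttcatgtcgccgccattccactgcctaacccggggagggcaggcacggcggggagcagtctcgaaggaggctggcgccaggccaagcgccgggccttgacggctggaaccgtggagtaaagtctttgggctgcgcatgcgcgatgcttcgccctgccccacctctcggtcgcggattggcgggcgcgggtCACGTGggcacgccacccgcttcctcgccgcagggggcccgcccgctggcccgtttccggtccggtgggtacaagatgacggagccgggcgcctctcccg
MNT (chr17:2401236-2401265, minus strand): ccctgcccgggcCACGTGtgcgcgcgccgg
MXD4 (chr4:2262330-2262359, minus strand): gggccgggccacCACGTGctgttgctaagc
STAG3 (chr7:100177735-100177764, plus strand): cgtgcccaagccCACGTGagagggcaggac
MYBBP1A (chr17:4555340-4555369, minus strand): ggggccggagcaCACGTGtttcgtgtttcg
ARRDC4 (chr15:97960481-97960510, plus strand): aaacggcctgtgCACGTGcacgccggagcc
The E-box of MLX lay 50 to 45 bases before the start, that of MNT began 193 bases before it and that of MXD4 began 238 bases before it. The MXD1 window had no CACGTG, which says only that these letters are not in this window. GENCODE 29 also begins MXD1 further upstream, at 69897688, than RefSeq does.

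In SETDB1-knockout cells mRNA of the repressor MXD1 was 2.60-fold lower, while MYC and MAX mRNA did not pass the test (log2 fold changes 0.06 and -0.021). MYCL, a barely expressed MYC relative, was 2.005-fold lower, MXD3 and MGA were lower by 1.21-fold and 1.17-fold, and MLX was 1.27-fold higher. By edgeR's quasi-likelihood test 5 of the 9 measured members (55.6%) passed, 1 higher and 4 lower. Over all 17675 genes tested 63.5% passed, 31.9% higher and 31.6% lower, so the members passed no more often than genes in general. Library values of the groups did not overlap for 6 of the 9 members, against 66.8% of all genes. The median log2 fold change was -0.02 over the 9 members and 0.01 over all genes. All 9 members passed the filter on low counts. In bulk RNA, fewer cells with a transcript and less of it per cell cannot be told apart.

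**Figure D1:**
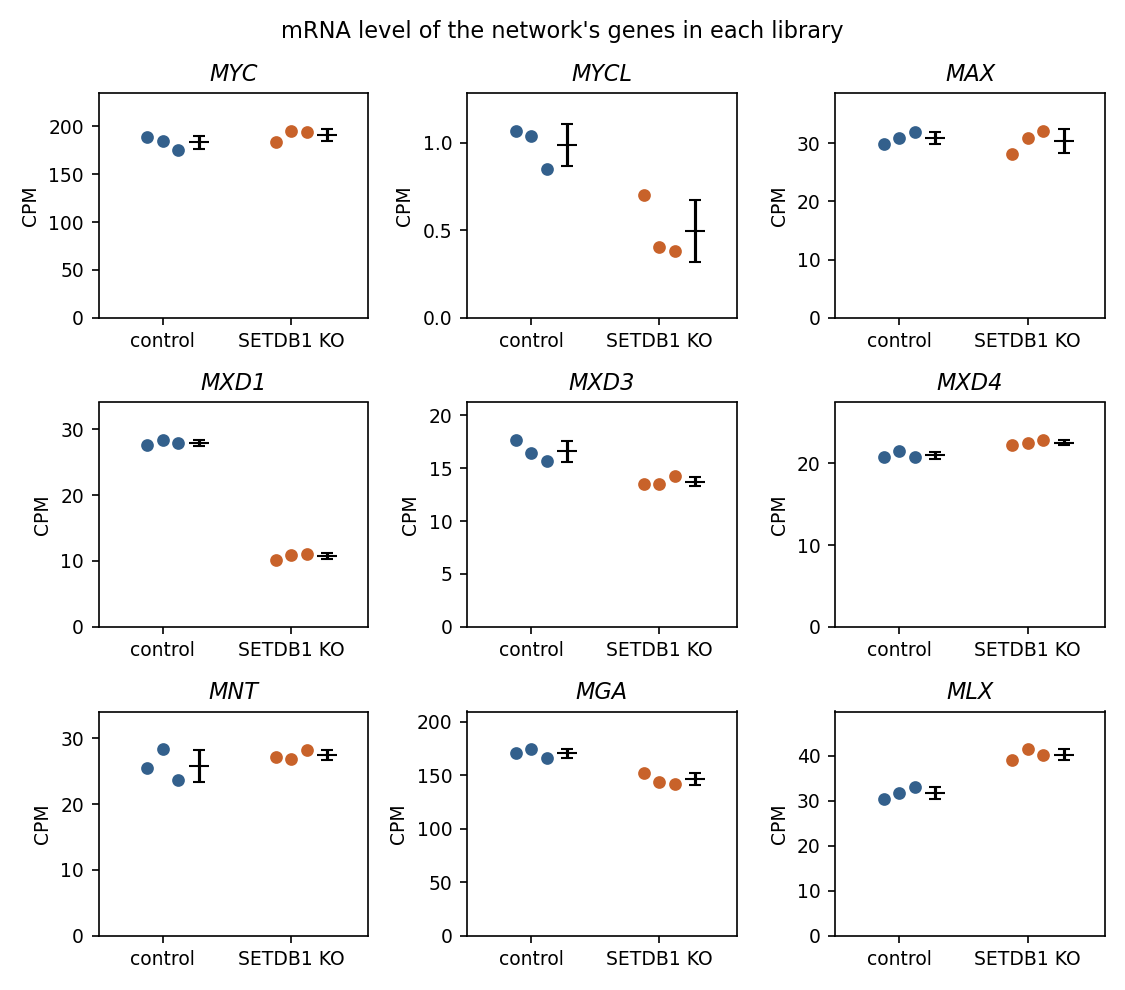
Level of each of the 9 measured members in CPM (vertical axis, from 0) in the 3 control (blue) and 3 SETDB1-knockout (orange) libraries, with the mean and SD as black bars. MXD1 falls from about 28 to about 11 CPM with no overlap, whereas the libraries of MYC, MAX and MNT overlap.

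MYC (ENSG00000136997, GRCh38 chromosome 8, 127735434 to 127741434) encodes the central activator. The knockout libraries held 184, 195 and 194 CPM of MYC mRNA, and the control libraries 189, 185 and 176 CPM. The groups overlapped, with 191 ± 6.13 against 183 ± 6.83 CPM. The log2 fold change was 0.06 ± 0.05 (SE; edgeR adjusted p = 0.332). Each library had at least 5521 MYC counts, so counting error was small beside the spread between libraries.

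MYCL (ENSG00000116990, chromosome 1, 39895426 to 39902256), first described as the MYC relative amplified in small cell lung cancer, was near the lower limit of measurement. It had 21, 14 and 13 counts in the knockout libraries and 32, 33 and 30 in the control libraries. Every knockout library was below every control library, at 0.495 ± 0.178 against 0.985 ± 0.120 CPM. MYCL fell by 1.004 ± 0.26 (SE) on the log2 scale (edgeR adjusted p = 0.00235). With each of the 6 libraries left out in turn, MYCL gave values from -1.31 to -0.85, all past the threshold. Where 3 libraries had to reach 1 CPM, the gene was not tested.

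MAX (ENSG00000125952, chromosome 14, 65006174 to 65102695) encodes the partner that MYC, MXD proteins, MNT and MGA share. Its level was 28.1, 30.9 and 32.1 CPM in the knockout and 29.8, 30.9 and 31.9 CPM in the control. The ranges lay within each other, and the means were 30.4 ± 2.06 and 30.8 ± 1.03 CPM. Its log2 fold change of -0.021 ± 0.06 (SE; edgeR adjusted p = 0.788) took either sign with the scaling used. Counts are per gene, so the MAX isoforms were not told apart.

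Among the repressors, MXD1 (ENSG00000059728, chromosome 2, 69897688 to 69942945) had the largest fall among the 9 members measured. It encodes the MXD protein (MAD1) known to come on when cells stop dividing and differentiate. MXD1 had 10.2, 10.9 and 11.1 CPM in the knockout and 27.6, 28.4 and 27.9 CPM in the control. The highest knockout library was far below the lowest control library, with means of 10.7 ± 0.493 and 27.95 ± 0.431 CPM. MXD1 fell by 1.38 ± 0.07 (SE) on the log2 scale (edgeR adjusted p = 5.99e-13). It was the only member that also passed a test against a fold of 1.5. Of its 6351 exon bases, 237 are shared with SNRNP27 on the same strand, which had a log2 fold change of -0.09 ± 0.08 (SE; edgeR adjusted p = 0.329).

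MXD3 (ENSG00000213347, chromosome 5, 177301461 to 177312757), the MXD gene known from dividing cells, changed little. It had 13.5, 13.5 and 14.2 CPM in the knockout and 17.7, 16.4 and 15.7 CPM in the control. The groups did not overlap, and the gene fell by 0.27 ± 0.07 (SE) on the log2 scale (edgeR adjusted p = 0.00239). MXD3 shares 926 exon bases with RAB24 and 1158 with PRELID1 of its 5154, with the counting of reads in such stretches not given in the sources used here. RAB24 and PRELID1 had log2 fold changes of -0.052 and -0.043, neither past the edgeR threshold.

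MXD4 (ENSG00000123933, chromosome 4, 2247432 to 2262294) encodes another MAX-binding repressor. It had 22.3, 22.4 and 22.9 CPM in the knockout and 20.8, 21.5 and 20.7 CPM in the control. The knockout libraries were all slightly higher, but the difference of 0.10 ± 0.06 (SE) on the log2 scale did not pass (edgeR adjusted p = 0.144). MNT (ENSG00000070444, chromosome 17, 2384060 to 2401118), which encodes the broadly expressed antagonist of MYC, stood at 27.2, 26.8 and 28.3 CPM in the knockout and at 25.4, 28.4 and 23.6 CPM in the control. These groups overlapped, with a log2 fold change of 0.09 ± 0.07 (SE; edgeR adjusted p = 0.267).

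MXI1, the remaining MXD-family repressor gene, is not in the set but was read from the same fit. It had 11.9, 12.4 and 10.7 CPM in the knockout and 14.4, 14.4 and 16.7 CPM in the control, and fell by 0.38 ± 0.08 (SE) on the log2 scale (edgeR adjusted p = 4.02e-04). Of the 5 MXD-family and MNT genes read here, MXI1 included, 3 passed as lower and 0 as higher, beside 31.6% and 31.9% of all genes. Relative to their chromosomal neighbours, described further on, MXD1 and MNT passed as lower and MXD4 and MXI1 as higher.

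MGA (ENSG00000174197, chromosome 15, 41621224 to 41773081) encodes the scaffold of PRC1.6. MGA had 152, 144 and 142 CPM in the knockout and 171, 174 and 166 CPM in the control. All knockout libraries were lower, and MGA fell by 0.22 ± 0.05 (SE) on the log2 scale (edgeR adjusted p = 8.83e-04). That fall was smaller than the median of the neighbouring genes, given further on.

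MLX (ENSG00000108788, chromosome 17, 42567068 to 42573239) was the only member called higher by edgeR with no neighbourhood median taken out. Its level was 39.1, 41.5 and 40.1 CPM in the knockout and 30.4, 31.8 and 33.04 CPM in the control. The groups did not overlap, and the log2 fold change was 0.34 ± 0.06 (SE; edgeR adjusted p = 2.98e-05). MLX shares 770 of its 4259 exon bases with PSMC3IP on the opposite strand, which rose by 0.58 ± 0.06 (SE; edgeR adjusted p = 1.27e-07), and the part of these shared bases in the rise of MLX was not tested.

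The partners of MLX were read from the same fit. MLXIP, the MondoA gene, stood at 77.3 ± 3.23 CPM in the knockout and 79.8 ± 2.90 CPM in the control, a log2 fold change of -0.05 ± 0.05 (SE; edgeR adjusted p = 0.466). MLXIPL, the ChREBP gene, was at 0.815 ± 0.102 and 1.23 ± 0.203 CPM and was lower by edgeR (-0.60 ± 0.21 (SE), adjusted p = 0.0181). That call was lost with DESeq2 (-0.60), without control replicate 1 (-0.46) and without SETDB1-knockout replicate 2 or 3 (-0.55 for each).

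To set members beside each other, levels were divided by the length of the merged annotated exons (CPM per kb). In control cells MYC came first at 61.1 ± 2.28 CPM per kb, followed by MGA at 9.66 ± 0.232, MLX at 7.45 ± 0.307 and MAX at 6.96 ± 0.233. MXD1 was next at 4.40 ± 0.0678 and by full exon length was the highest of the 4 MXD and MNT genes in the set, which leaves out MXI1. Below it, MXD3 (3.22 ± 0.199), MXD4 (2.97 ± 0.0587) and MNT (2.96 ± 0.274) could not be ordered, since their libraries overlapped, as did those of MLX and MAX. The length of MXD3 includes 926 and 1158 bases shared with RAB24 and PRELID1, of 5154. If reads there were not counted, its per-length level is too low, so the order of MXD1 and MXD3 in the control was not settled. MYCL was last at 0.195 ± 0.0237 CPM per kb.

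In the SETDB1 knockout MXD1 dropped to 1.69 ± 0.0776 CPM per kb. It became the lowest of the 4 MXD and MNT genes in the set, with no overlap with MXD3 above it (2.66 ± 0.0833). MLX (9.45 ± 0.293) stood above MGA (8.27 ± 0.311) there, the reverse of their order in the control. Merged exon length is an upper limit of the length of any single transcript, which weighs on genes with many isoforms such as MGA.

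The per-length levels of MXD1, MXD3, MXD4 and MNT together came to 10.5, 10.6 and 10.99 CPM per kb in the knockout libraries and to 13.6, 13.96 and 13.1 in the control libraries. This repressor sum, and the ratio and share drawn from it, leave out MXI1 and MGA. All of them use the full exon length of MXD3, with the limit on shared bases given above. MYC and MYCL together came to 63.7 ± 2.01 CPM per kb in the knockout and 61.3 ± 2.30 in the control. The log2 ratio of summed repressors to summed activators was -2.58 ± 0.0397 in the knockout and -2.18 ± 0.0340 in the control, given as a description with no test. MXD1 made up 15.8% ± 0.498 of the repressor sum in the knockout and 32.5% ± 0.948 in the control. MYC and MYCL together were 9.31 ± 0.385 times the level of MAX in the knockout and 8.81 ± 0.618 times in the control.

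Genes along a chromosome often shifted together in this comparison, so each member was set beside the median log2 fold change of its neighbours (25 genes on each side with log2 CPM above 3). The neighbours of MXD1, MXD4, MYCL and MLX had medians nearer 0 (-0.10, -0.12, 0.01 and 0.07). Those of MNT had a median of 0.62 and those of MYC 0.32, while those of MGA, MAX and MXD3 had -0.40, -0.24 and -0.22. MXI1 lay among genes with a median of -0.58. Within 5 Mb of MNT 75 of 80 expressed genes were above 0, and within 5 Mb of MGA 65 of 71 were below 0. The next tested genes on both sides of MNT, SGSM2 and METTL16, rose by 0.57 ± 0.06 and 0.61 ± 0.05 (SE; edgeR adjusted p = 5.75e-08 and 3.93e-09). MNT itself did not.

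With the neighbourhood median taken out of each gene's values, the members split otherwise. MXD1, MYCL and MLX kept their calls, at -1.28, -1.02 and 0.27 on the log2 scale. MNT (-0.53) and MYC (-0.26) then passed as lower, and MAX (0.22), MXD4 (0.22) and MGA (0.17) as higher, while MXD3 (-0.05) lost its call. MXI1 turned from lower to higher (0.20). On this scale 8 of 9 members passed, 4 in each direction, against 56.7% of all genes (30.2% higher and 26.6% lower). The median was taken out as a fixed value, so these tests leave out its own error and the spread of the neighbours around it. These values are relative to the neighbours and are not levels, and what moved the neighbours was not tested.

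**Figure D2:**
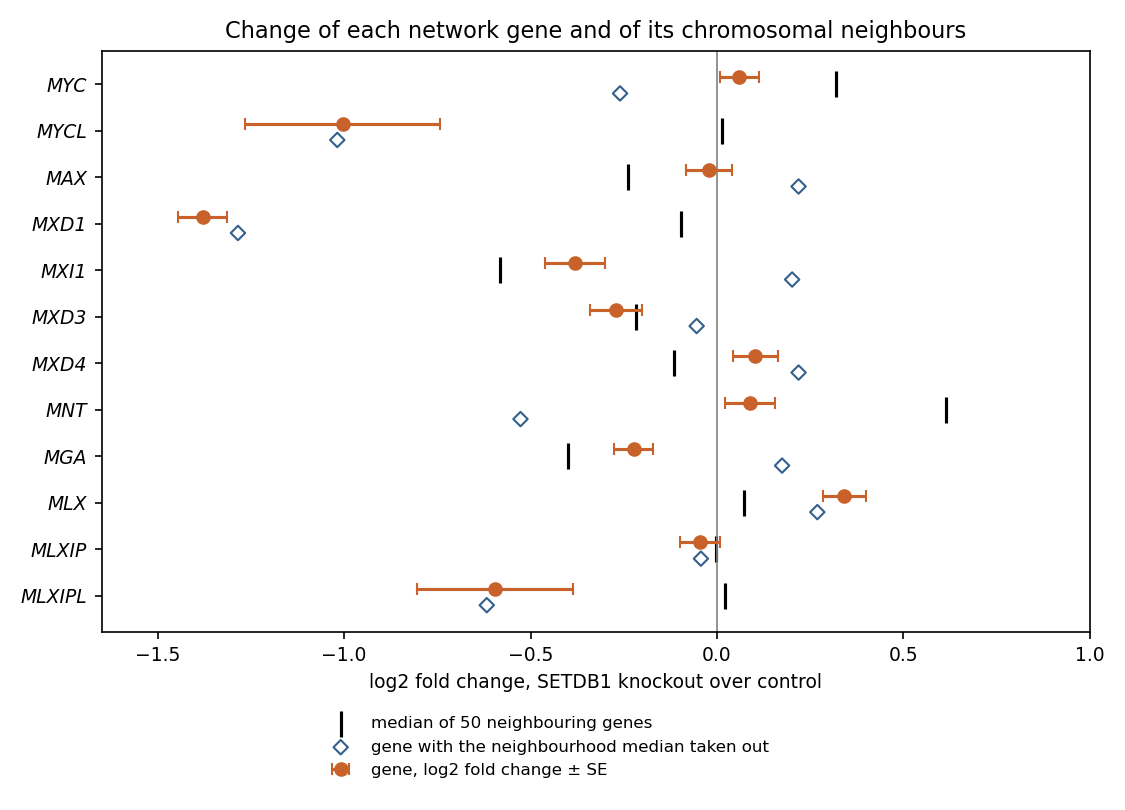
Log2 fold change of 12 network genes, SETDB1 knockout over control (orange points, with SE), the median of 50 neighbouring genes (black bars), and the gene's value with that median taken out (blue diamonds). MXD1, MYCL, MLX, MXD4 and MLXIPL lie apart from their neighbours' bars and on the same side of 0 in both fits. Of these, MXD4 passed only with the median taken out. MYC, MAX, MXI1, MNT and MGA change side.

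**Figure D3:**
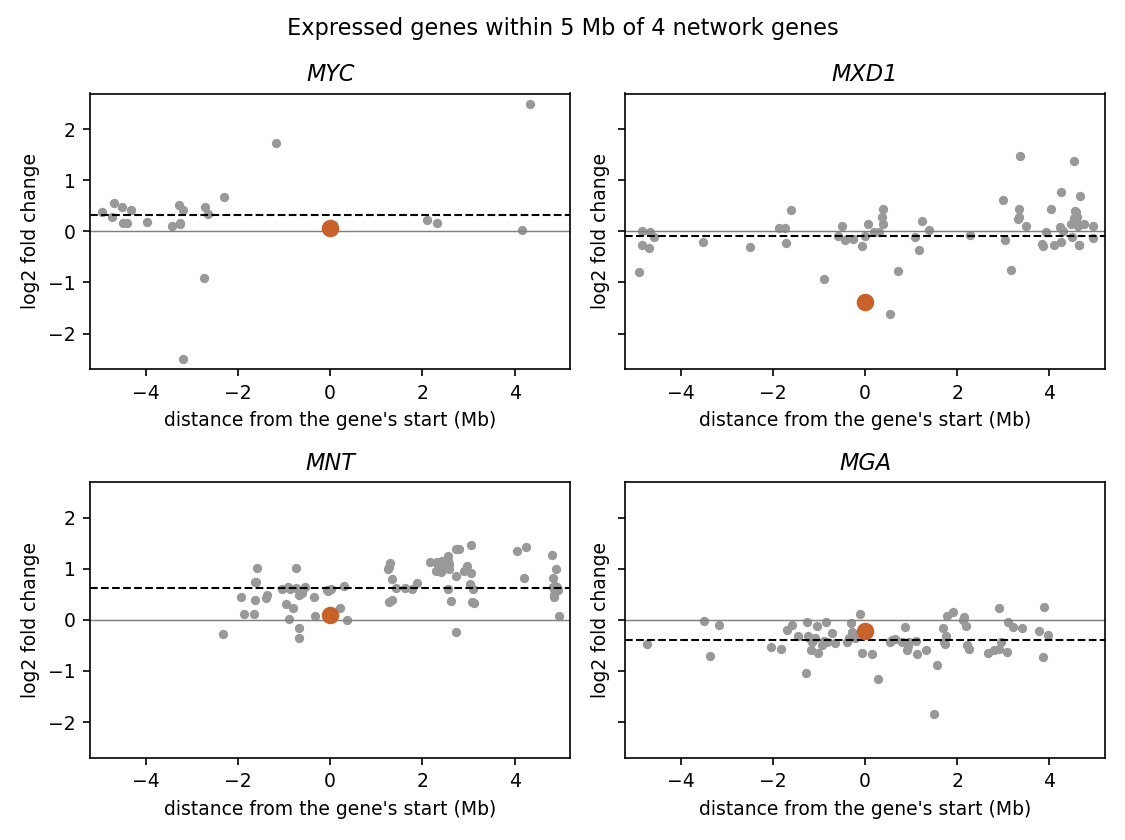
Log2 fold change of expressed genes (grey points) by distance in Mb from the start of MYC, MXD1, MNT or MGA (orange point), with the median of the 50 nearest expressed genes as a dashed line, which can reach past the 5 Mb drawn. Values beyond 2.5 (2 genes near MYC) are drawn at the edge. MNT sits below and MXD1 far below its dashed line.

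Genes that MYC is known to activate, from a list of 73 with all members tested, were higher in 37 and lower in 22, beside 31.9% and 31.6% of all genes, which is also the background for each list that follows, with a median log2 fold change of 0.16 beside 0.01 for all genes. The telomerase gene TERT rose 2.34-fold to 24.4 ± 1.36 CPM. The nucleolar gene MYBBP1A rose 2.20-fold to 209 ± 3.25 CPM, where the neighbours' median was 0.65. The cyclin gene CCND2 rose 2.10-fold, where the neighbours' median was 0.34. The steepest falls were of FBL, the fibrillarin gene (1.72-fold), of the RNA exosome gene EXOSC5 (1.599-fold) and of the nucleolar gene NOLC1 (1.37-fold), with edgeR adjusted p-values no higher than 3.77e-07. The neighbours of these 3 genes had medians of -0.77, -0.80 and -0.44. Relative to those neighbours 0 of the 3 passed as lower (-0.01, 0.12 and -0.02), and the list had 39 members higher and 5 lower. Relative to neighbours 30.2% of all genes were higher and 26.6% lower, the background for such counts in the later lists too. CACGTG was found in 30 of the list's 75 promoter windows, beside 7.26% of all windows.

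Of 11 tested genes that MYC is known to repress, 2 were higher and 7 lower, with a median of -0.23 (3 and 6 relative to their neighbours). The receptor gene PDGFRB fell by 2.06 ± 0.42 (SE) on the log2 scale, starting at a low 0.433 ± 0.0785 CPM. The growth arrest gene GADD45A fell by 0.58 ± 0.06 (SE), starting at 43.2 ± 0.731 CPM. The cell cycle inhibitor gene CDKN1C, under 1 CPM, was called lower (-0.67), but not with DESeq2 or without control replicate 2 or 3 or SETDB1-knockout replicate 2. The inhibitor gene CDKN2B was called higher (0.18), but not with DESeq2 or without control replicate 2 or 3 or SETDB1-knockout replicate 2 or 3. NDRG1, a stress response gene, had 333 counts in the knockout group and 2 in the control group, a ratio of 164 (95% exact counting interval 44.9 to 1357). That interval holds counting error alone and leaves out the spread between libraries. NDRG1 and PDGFRB passed the filter on low counts through 1 group alone, so their places in these counts are a description.

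Coactivators and partners of MYC were higher in 6 and lower in 2 of 15, with a median of 0.05 (6 and 4 relative to their neighbours). The ATPase genes RUVBL1 and RUVBL2, which belong to the TIP60 and INO80 complexes, rose 1.47-fold to 190.5 ± 7.78 CPM and 1.55-fold to 182 ± 8.56 CPM, and the acetyltransferase gene EP300 rose 1.35-fold. RUVBL2 lay among genes with a median of 0.59 and had no call with that median taken out (0.04). EP300 lay among genes with a median of 0.28 and kept its call at 0.16 with that median taken out. The elongation factor genes PAF1 and SUPT5H fell 2.21-fold and 1.93-fold, in a part of chromosome 19 with neighbour medians of -0.75 and -0.78. For all 5 the edgeR adjusted p was at most 5.63e-07.

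Genes that govern the turnover of MYC protein were lower in 6 and higher in 3 of 12, or in 5 and 4 with library size alone or upper-quartile scaling. FBXW7, which encodes the ubiquitin ligase subunit that recognises phosphorylated MYC, fell from 23.99 ± 0.549 to 15.1 ± 0.446 CPM (log2 fold change -0.67 ± 0.06 (SE), edgeR adjusted p = 1.78e-08) among neighbours with a median of -0.00273. The ligase gene HUWE1 fell 1.22-fold and the phosphatase inhibitor gene SET fell 1.26-fold. CIP2A, which encodes an inhibitor of the phosphatase that acts on MYC, rose 1.11-fold, a call that was lost without control replicate 2 or SETDB1-knockout replicate 2 or 3.

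Corepressors that MXD proteins and MNT recruit were higher in 4 and lower in 3 of 14, with a median of -0.03, or in 6 and 2 with library size alone or upper-quartile scaling. The deacetylase genes HDAC1 and HDAC2 moved apart. HDAC1 rose from 112 ± 4.74 to 149 ± 2.79 CPM and HDAC2 fell from 268 ± 8.50 to 210.2 ± 7.73 CPM (edgeR adjusted p = 1.21e-06 and 9.38e-06). HDAC2 lay among genes with a median of -0.50 and was called higher (0.15) with that median taken out. RBBP4, a histone-binding subunit gene, rose 1.13-fold, and SAP30 fell 1.21-fold, the latter call being lost without SETDB1-knockout replicate 3. Calls of the SIN3 complex genes ING1 (0.20) and ING2 (-0.22) were each lost with DESeq2 and in 4 of the 6 leave-one-out fits.

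PRC1.6, the complex that MGA and MAX enter, had 8 of 15 genes lower and 4 higher, beside 31.6% and 31.9% of all genes, with a median of -0.16. The list includes MGA and MAX, and HDAC1, HDAC2, WDR5 and CBX3 stand in other lists too. PCGF6, the Polycomb subunit gene that defines this complex, fell from 39.3 ± 3.85 to 21.6 ± 3.002 CPM (log2 fold change -0.86 ± 0.09 (SE), edgeR adjusted p = 3.33e-08). YAF2, a RING1-binding subunit gene, fell from 34.4 ± 1.37 to 17.96 ± 3.60 CPM (-0.93 ± 0.10 (SE), edgeR adjusted p = 9.42e-08). Its close relative RYBP rose 1.52-fold and L3MBTL2, a chromatin-binding subunit gene, rose 1.36-fold, while CBX3, the HP1-gamma gene, fell 1.32-fold. CBX3 had a neighbour median of -0.39 and no call with it taken out. On that scale the list had 7 higher and 4 lower, with PCGF6 (-0.39) and YAF2 (-0.64) still lower.

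Germline genes known as targets of PRC1.6 were listed as 16, of which 9 were not analysed here and 1 did not pass the filter on low counts. Of the 6 tested, 4 were higher and 1 lower, with a median of 1.72 (4 and 0 relative to their neighbours). Genes that enter such a list through 1 group only had to differ, so this median stands as a description. STAG3, a meiotic cohesin gene, had 278, 249 and 250.04 CPM in the knockout and 71.3, 75.9 and 70.8 CPM in the control. The groups were far apart, and STAG3 rose by 1.83 ± 0.06 (SE) on the log2 scale (edgeR adjusted p = 1.48e-15). The meiotic genes SMC1B and SYCE2 rose 3.46-fold to 4.72 ± 0.512 CPM and 3.88-fold to 3.31 ± 0.346 CPM (edgeR adjusted p = 1.15e-09 and 8.24e-09). MEIOB, a meiotic recombination gene, rose from 12.9 ± 0.972 to 40.7 ± 2.42 CPM (edgeR adjusted p = 1.02e-13), and was named after its value was seen. STK31, under 1 CPM, was called lower (-0.61), but not with DESeq2, with the neighbourhood median taken out, or in 4 of the leave-one-out fits. CACGTG was in 10 of the list's 21 promoter windows (47.6%), STAG3 among them, and some of these windows overlap.

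Genes known to respond to glucose through MLX and MondoA were listed as 7, of which TXNIP and PKLR were not analysed here. Of the 5 tested, 3 were higher and 1 lower (3 and 2 relative to their neighbours), with a median of 0.36. ARRDC4, an arrestin-like gene of glucose uptake, had 43, 63 and 53 counts in the knockout libraries and 5, 4 and 5 in the control libraries, or 1.601 ± 0.198 against 0.145 ± 0.0206 CPM. It passed the filter on low counts through the knockout group alone, so its place among the 3 higher genes is a description. The glycolysis regulator gene PFKFB3 rose 1.74-fold to 34.8 ± 1.73 CPM and KLF10 rose 1.29-fold. ACACA, which encodes the first enzyme of fatty acid synthesis, fell 1.46-fold to 146 ± 7.92 CPM.

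**Figure D4:**
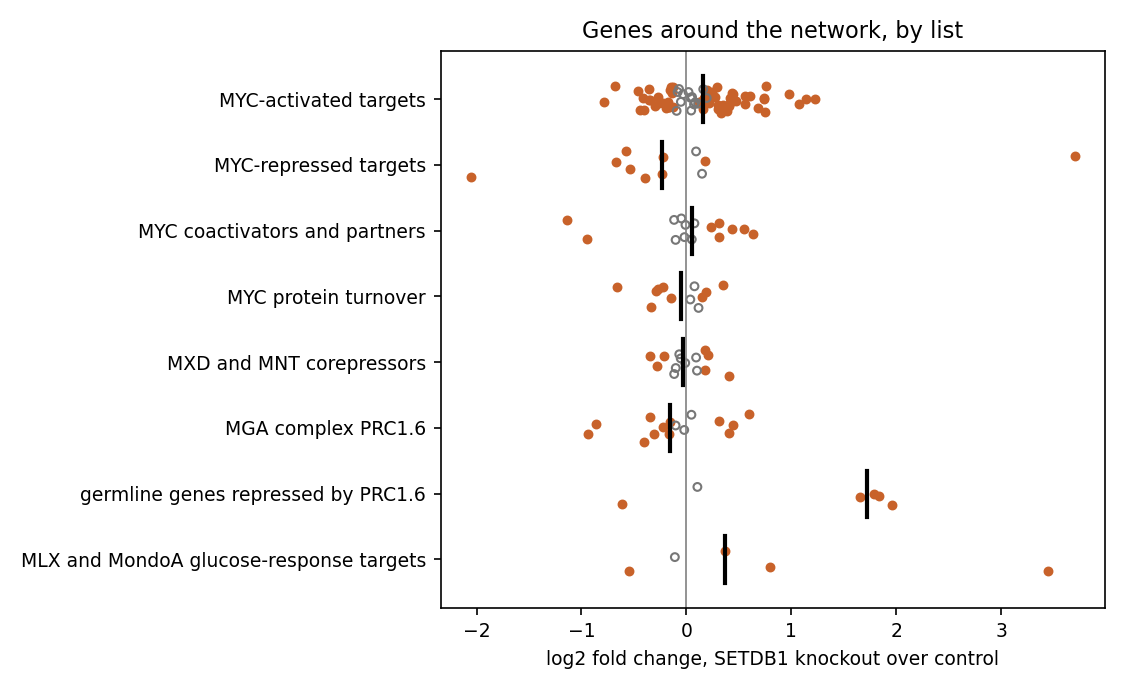
Log2 fold change of each tested gene in 8 lists around the network (filled orange, past the edgeR threshold; open grey, not), with the list's median as a black bar. NDRG1 lies beyond the axis and is drawn at its right edge. Medians lie between -0.23 and 0.36 except for the germline list, which has 4 of its 6 genes above 1.6.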

How the data were processed

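Total RNA of 6 H1299 samples was made into libraries with an Illumina TruSeq RNA kit, per the labels' protocols. The values are raw counts of reads in each gene, as the authors deposited them in 1 table. FastQC, TopHat2, HTSeq and GRCh38.p7 are named per the submitters' processing notes. Strandedness and settings were not given in the sources used here. Every row reached at least 11 counts in some library.

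Groups came from sample titles. Identifiers without version were matched to GENCODE 29 (GRCh38), naming 18595 of 18677 rows. Genes were kept by filterByExpr (17675 tested), scaled by TMM and tested with edgeR 4.0.16 robust quasi-likelihood fits in R 4.3.3, with Benjamini-Hochberg adjustment over all genes and a threshold of 0.05. The SE is the log2 fold change over the root of the F statistic. Alternatives used DESeq2 1.42.0, limma 3.58.1 (voom), other scalings, filters and thresholds, a replicate block, each library left out, and the neighbourhood median taken out by an offset. The steps were tested on simulated data with few changed genes or a single shifted stretch, far less change than in these data. That run cannot show how the steps act where many genes shift. The members and lists were chosen with earlier results of these data known. Named genes were all members, the other network genes, up to 3 called rises and 3 called falls per list whose groups did not overlap, called next neighbours changed at least 2-fold, and the 3 genes most like MYC and MAX. Results for some items are not reported here, though list counts include every tested gene.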

Additional observations from a re-analysis of the deposited data

How the results depend on the processing

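Counts of members called (1 higher, 4 lower) kept within 1.5 times under the other scalings, filters and tools, an adjusted p under 0.01, and each library left out. Against a fold of 1.5 (edgeR glmTreat) 0 members were higher and 1 lower, with 0 higher at an unadjusted p under 0.05, while DESeq2 and limma-voom without that fold each called 1. On that test 8 MYC-activated targets were higher and 1 lower, and 1556 and 1496 genes overall. With the neighbourhood median taken out, 4 members were higher and 5 MYC-activated targets lower. With 10 genes on each side, an alternative chosen after seeing the data, these were 4 and 4. The sign turned under both neighbourhood fits (25, then 10 genes on each side) for MYC (-0.26, -0.18), MAX (0.22, 0.19), MNT (-0.53, -0.46), MGA (0.17, 0.19), MXI1 (0.20, 0.21), EXOSC5 (0.12, 0.22) and HDAC2 (0.15, 0.13). With 10 genes only it also turned for MLXIP (0.033), CBX3 (0.010) and RUVBL2 (-0.015), and the cause was not tested. MAX was at 0.020 with library size alone, 0.011 with upper-quartile scaling, and -0.065 to 0.031 with each library left out. Whether replicate numbers pair the samples was not settled. Deviations of same-numbered libraries correlated at 0.38, -0.15 and 0.20, and libraries did not all correlate best with their own number. Deviations from a group mean sum to 0 over so few libraries, so these correlations cannot exclude a pairing. The replicate block gave 1 member higher and 4 lower, 5864 genes higher and 5839 lower, and changed none of the calls of the 52 named genes. Low counts limit the precision for MYCL, MLXIPL, CDKN1C, PDGFRB, STK31, ARRDC4 and NDRG1.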

Other observations

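Beside MYC on chromosome 8, the next tested gene before it, the non-coding CASC8, with low counts in the control, rose from 0.292 ± 0.0709 to 1.21 ± 0.157 CPM (log2 fold change 2.06 ± 0.26 (SE), edgeR adjusted p = 1.18e-06). PVT1, the non-coding neighbour on the other side, stood at 30.5 ± 2.43 CPM in the knockout and 27.9 ± 1.65 CPM in the control (0.13 ± 0.07 (SE), edgeR adjusted p = 0.101). ZFYVE28, next to MXD4, rose from 6.56 ± 0.0815 to 15.4 ± 1.52 CPM (edgeR adjusted p = 2.14e-10). The cytoskeletal gene ADD3, next to MXI1, fell from 28.7 ± 0.693 to 11.99 ± 0.987 CPM (edgeR adjusted p = 5.51e-12). AC156455.1, next to MLXIP, rose from 4.02 ± 0.463 to 8.86 ± 0.507 CPM (edgeR adjusted p = 6.76e-09).

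Likeness of pattern was measured as the root mean square difference of log2 CPM, centred on each gene's mean, over the 6 libraries and 10540 genes with average log2 CPM above 3. The genes most like MYC were ST6GALNAC4 (0.0157), FZR1 (0.0167) and RABEP2 (0.0182), and those most like MAX were RAB7A (0.0152), PCBP1 (0.0204) and TXNL4A (0.0215). With a flat pattern over 6 libraries this measure picks other genes that hardly change, and these 6 had no edgeR call.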
